A study of Mus musculus with 6 samples.

Results

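The 10 genes described here belong to the Wnt pathway and were followed across 6 mouse mammary tumours. They are the TCF/LEF transcription factor genes Lef1, Tcf7, Tcf7l1 and Tcf7l2, the beta-catenin gene Ctnnb1, the ligand genes Wnt4 and Wnt5a, and Nkd1, Nkd2 and Lgr5. The set was chosen by the Lef1 values of these same arrays, because Lef1 was high in a single tumour, so those values are given as a description, with no test. The other genes were added for their place in the pathway. Of these 10 genes, 9 were measured, out of 19937 genes with 1 row each in the table. Tcf7 was not analysed here. For each gene the probe set with the highest mean over all tumours was used, and no gene was left out for low intensity.

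All 6 mice were FVBN females with the MMTV-PyMT transgene, in which the long terminal repeat of mouse mammary tumour virus directs polyoma middle T antigen to the mammary epithelium. Vehicle mice (n = 3) received DMSO and TMP195 mice (n = 3) received 50 mg/kg of TMP195, an inhibitor of class IIa histone deacetylases, by daily intraperitoneal injection and tumour burden had been assessed at an age of 75 to 90 days. The sources used here give the dosing time once as 5 days and once as 2 weeks. Each mouse gave 1 whole tumour, profiled on an Affymetrix array. Replicates are thus different mice, and their number limits the precision of every difference. A whole tumour mixes cell types, and fewer cells of a type and less RNA per cell cannot be told apart in these values.

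In the canonical Wnt pathway, a ligand binds a Frizzled receptor together with Lrp5 or Lrp6, and this stops a cytoplasmic complex of Apc, Axin and Gsk3 from marking beta-catenin for destruction. Beta-catenin then enters the nucleus and binds a TCF/LEF factor, which on its own tends to hold its targets repressed with Groucho (Tle) proteins. Many targets, among them Axin2, Nkd1, Lgr5 and Lef1 itself, feed back on the pathway. In the mammary gland, Lef1 marks the earliest bud, Wnt4 acts downstream of progesterone in side branching, and Wnt5a is a ligand known mainly for signalling without beta-catenin.

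Median intensity over all probe sets lay between 44.8 and 46.4 on the 6 arrays. For luminal epithelium, the cell type in which the transgene is active, 13 markers were measured. Their summed intensity, led by the brightest, ran from 14360 to 15180 over the 6 tumours. Single luminal markers varied more: in TMP195 tumour 2 Krt19 (10.52, others 9.39 to 10.01) and Foxa1 (5.17, others 3.88 to 5.09) lay above the other 5 on the log2 scale, and Elf5 (10.70, others 11.06 to 11.24) and Cldn4 (8.28, others 8.53 to 9.21) below. Over the whole table, TMP195 tumour 2 stood apart, with vehicle tumour 2 a distant next. In TMP195 tumour 2, 301 genes (1.51% of all) lay more than 2-fold above the median of the other 5 tumours and 211 (1.06%) more than 2-fold below, and in vehicle tumour 2 these counts were 97 (0.487%) and 57 (0.286%). In the other 4 tumours no count above exceeded 89 (vehicle tumour 3), close to that of vehicle tumour 2. No count below exceeded 36 (vehicle tumour 1).

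Lef1 is the gene on which the set turns, and 2 of its 4 start sites in the RefSeq promoter table (GRCm38.p6) are shown because they differ in their match to the sequence that TCF/LEF factors bind. The table held windows for 8 of the 10 genes, and Lgr5 and Wnt5a had no entry. Each sequence is the 250 bases before a start site, on the plus strand. Capitals mark CTTTGA or CTTTGT, the core of the TCF/LEF site, read on both strands (TCAAAG and ACAAAG on the other). The 2 motifs do not overlap in these windows.
Lef1 first start, chr3:131110047-131110296: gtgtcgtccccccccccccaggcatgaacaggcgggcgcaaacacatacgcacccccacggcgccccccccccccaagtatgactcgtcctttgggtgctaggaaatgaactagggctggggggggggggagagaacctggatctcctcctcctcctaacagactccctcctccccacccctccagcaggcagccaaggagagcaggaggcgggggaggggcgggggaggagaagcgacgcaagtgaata
Lef1 internal start, chr3:131156044-131156293: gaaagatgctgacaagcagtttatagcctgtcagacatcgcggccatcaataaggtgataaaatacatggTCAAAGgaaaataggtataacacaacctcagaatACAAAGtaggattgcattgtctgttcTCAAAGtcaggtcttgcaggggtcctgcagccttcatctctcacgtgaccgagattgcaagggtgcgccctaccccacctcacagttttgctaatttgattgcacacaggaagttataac

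The first window held no match in 250 bases, of which 66.4% were G or C. The window of the internal start held 3 matches, TCAAAG beginning 180 and 120 bases before the start and ACAAAG beginning 146 bases before it, and 44.8% of its bases were G or C. Of 32851 windows of this length, 27.6% held at least 1 match to either motif, 13.8% to CTTTGA and 16.5% to CTTTGT. Of the 14 windows of the 8 genes, 3 held a match: this one, 1 of Tcf7l1 and 1 of Tcf7l2. A match describes the letters and is not a bound site. The array gives a single value per probe set, so which Lef1 start was used in any tumour was not measured.

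Lef1 (gene ID 16842, chromosome 3, 131110297 to 131224357), the factor that bends DNA at Wnt-responsive enhancers, had log2 intensities of 3.98, 4.003 and 3.88 in vehicle tumours 1, 2 and 3. In TMP195 tumours 1, 2 and 3 it was 4.12, 6.21 and 4.15. TMP195 tumour 2 was the high one, and the other 5 tumours lay within 0.27 of each other on the log2 scale. Its value was 2.21 above the median of the other 5, or 4.63-fold on the linear scale, and 27 of 19937 genes (0.135%) lay at least that far above in the same tumour, Lef1 included. The group means were 3.96 ± 0.064 (SD, n = 3) for vehicle and 4.83 ± 1.20 (SD, n = 3) for TMP195, a difference of 0.87, and without TMP195 tumour 2 the difference was 0.18. Both remaining TMP195 tumours still lay above all 3 vehicle tumours, by at least the step from 4.003 to 4.12. No other member lay more than 2-fold from the median of the other 5 in any tumour. The farthest any of the other 8 genes lay from the median of the other 5, in any tumour, was 0.66 on the log2 scale, for Lgr5 in vehicle tumour 2.

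**Figure D1:**
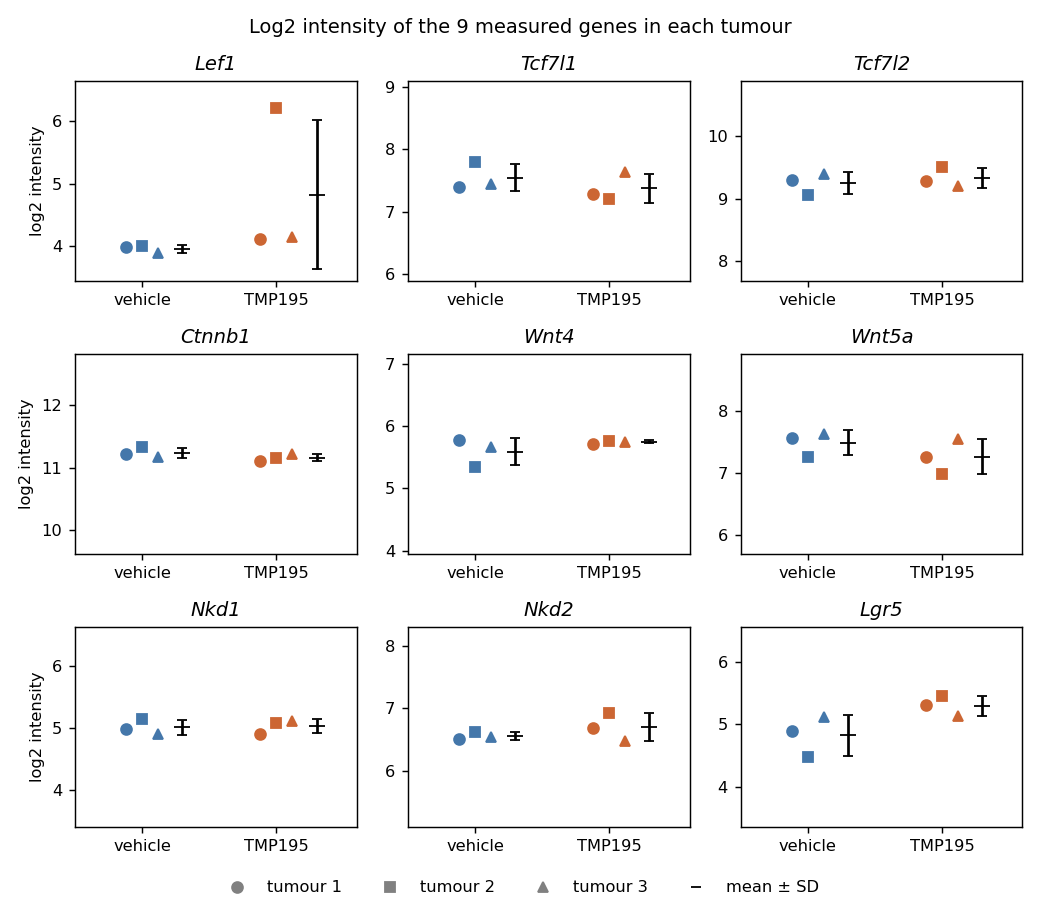
Log2 intensity of each measured gene (y axis, an equal span of log2 units in every panel) in the vehicle tumours (blue) and TMP195 tumours (orange); the marker shape gives the tumour number and the black bar the mean ± SD of 3 tumours. Lef1 in TMP195 tumour 2 sits at 6.21 against 3.88 to 4.15 elsewhere, whereas no other gene spans more than 0.98.

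The other measured TCF/LEF factors did not share that height. Tcf7l1 (gene ID 21415, chromosome 6, 72626371 to 72789045), which acts mostly as a repressor, was 7.39, 7.79 and 7.45 under vehicle (tumours 1, 2 and 3 in order, as in all that follows) and 7.28, 7.20 and 7.64 under TMP195. It was lowest in the tumour with high Lef1 and highest in vehicle tumour 2, and the groups overlapped. Its difference, TMP195 minus vehicle, was -0.17 ± 0.16 (SE), with a 95% limma interval of -0.55 to 0.21. Without vehicle tumour 2 it was -0.047, without TMP195 tumour 2 it was -0.083, and without TMP195 tumour 3 it was -0.30.

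Tcf7l2 (gene ID 21416, chromosome 19, 55741797 to 55933659), the main partner of beta-catenin in many epithelia, was 9.29, 9.06 and 9.40 under vehicle and 9.29, 9.52 and 9.20 under TMP195. Its highest value was in TMP195 tumour 2 and its lowest in vehicle tumour 2, within a span of 0.46. The difference was 0.08 ± 0.13 (SE), interval -0.22 to 0.39. Its sign changed on leaving out vehicle tumour 2 (-0.011) or TMP195 tumour 2 (-0.0063) and with limma's array weights (-0.043). Ctnnb1 (gene ID 12387, chromosome 9, 120933400 to 120960507), which encodes beta-catenin, spanned 0.22 over the 6 tumours. It was 11.21, 11.33 and 11.17 under vehicle and 11.11, 11.15 and 11.22 under TMP195, with overlapping groups and a difference of -0.08 ± 0.09 (SE), interval -0.29 to 0.14. Without vehicle tumour 2 the difference was -0.029. Beta-catenin is controlled largely at the level of the protein, which was not measured.

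The ligand genes came next. Wnt5a (gene ID 22418, chromosome 14, 28504543 to 28527448) was 7.57, 7.26 and 7.63 under vehicle and 7.26, 6.99 and 7.55 under TMP195. It was lowest in the tumour with high Lef1, 0.56 below the median of the other 5, and the groups overlapped. The difference was -0.22 ± 0.17 (SE), interval -0.62 to 0.19, and it was -0.079 without TMP195 tumour 2 and -0.36 without TMP195 tumour 3. Wnt4 (gene ID 22417, chromosome 4, 137277635 to 137299501) was 5.77, 5.34 and 5.66 under vehicle and 5.72, 5.77 and 5.75 under TMP195. Vehicle tumour 2 alone was low, and the other 5 tumours lay close together. The difference was 0.15 ± 0.13 (SE), interval -0.14 to 0.45, and it was 0.030 without vehicle tumour 2 and 0.24 without vehicle tumour 1. A second, dimmer probe set of Wnt4 went the other way, at 3.72, 3.82 and 3.88 under vehicle and 3.63, 3.41 and 3.63 under TMP195, a difference of -0.25, so the direction of Wnt4 depends on the probe set.

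Nkd1 and Nkd2 encode Naked cuticle proteins, which bind Dishevelled and dampen the pathway, and Nkd1 is a widely used readout of it. Nkd1 (gene ID 93960, chromosome 8, 88521342 to 88594887) was 4.98, 5.14 and 4.91 under vehicle and 4.90, 5.07 and 5.11 under TMP195. The groups overlapped, and in the tumour with high Lef1 it was 0.09 above the median of the other 5. The difference was 0.02 ± 0.11 (SE), interval -0.23 to 0.27, and its sign turned when vehicle tumour 3 (-0.031), TMP195 tumour 2 (-0.0032) or TMP195 tumour 3 (-0.021) was left out. Nkd2 (gene ID 72293, chromosome 13, 73818534 to 73847631) was 6.51, 6.62 and 6.54 under vehicle and 6.69, 6.93 and 6.48 under TMP195. It was highest in TMP195 tumour 2, 0.39 above the median of the other 5, and lowest in TMP195 tumour 3, so the groups overlapped. The difference was 0.14 ± 0.13 (SE), interval -0.17 to 0.45, and it was 0.026 without TMP195 tumour 2 and 0.25 without TMP195 tumour 3.

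Lgr5 (gene ID 14160, chromosome 10, 115450314 to 115587780), an R-spondin receptor that marks stem cells in several epithelia, varied more than any measured member but Lef1. It was 4.89, 4.47 and 5.12 under vehicle and 5.31, 5.45 and 5.13 under TMP195. The groups did not overlap, by the narrow step from 5.12 to 5.13. The means were 4.83 ± 0.33 (SD, n = 3) and 5.30 ± 0.16 (SD, n = 3), a difference of 0.47 ± 0.18 (SE), or 1.38-fold, with a 95% interval of 0.05 to 0.89. The unadjusted limma p was 0.0345 and the adjusted p = 1.00 over all genes, so it did not pass. Vehicle tumour 2 was the low one, and without it the difference was 0.29, whereas without TMP195 tumour 2 it was 0.39. The unadjusted p was above 0.05 when vehicle tumour 1 (0.0608), vehicle tumour 2 (0.0817), TMP195 tumour 1 (0.0771) or TMP195 tumour 2 (0.0954) was left out. It was 0.124 with limma's array weights, where the difference was 0.28, and 0.0723 with the replicate number as a block.

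**Figure D2:**
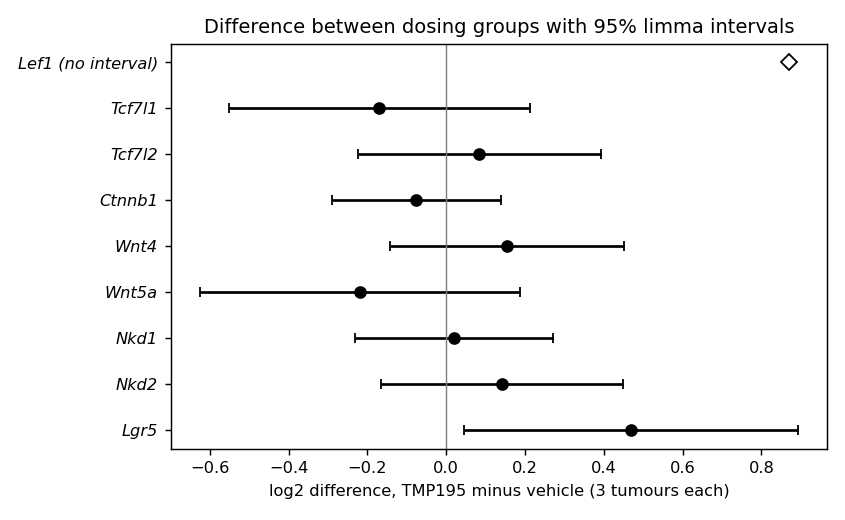
Difference in log2 intensity, TMP195 minus vehicle with 3 tumours each (x axis), for each measured gene (y axis); circles are differences with 95% limma intervals and the open diamond is Lef1, given without an interval because its values prompted the set. Every interval includes 0 except that of Lgr5, which runs from 0.05 to 0.89 and did not pass the adjusted test.

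With limma, 0 of the 8 genes other than Lef1 passed an adjusted p of 0.05, each with adjusted p = 1.00, against 0% of all 19937 genes. At an unadjusted p under 0.05 there was 1 of the 8, Lgr5, against 2.52% of all genes, and that 1 was lost under the settings given above for Lgr5. Of the 9 measured genes, 6 were higher and 3 lower under TMP195, with a median difference of 0.08, beside 9863 higher of 19937 and a median of -0.0014 over all genes. Without Lef1, whose values prompted the set, 5 of 8 were higher and 3 lower, with a median of 0.052. The groups did not overlap in 2 of the 9, Lef1 and Lgr5, both higher under TMP195, where 3.47% of all genes were so, and the count includes the gene that prompted the set. Without TMP195 tumour 2 the median difference of the 9 was -0.0032.

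The members also differed in how they behaved in the tumour with high Lef1. TMP195 tumour 2 held the highest value of 4 of the 9 (Lef1, Tcf7l2, Nkd2 and Lgr5) and the lowest of 2 (Tcf7l1 and Wnt5a), where it held the highest value of 25.4% and the lowest of 22.4% of all genes. That count includes Lef1, chosen for its value there, and without it 3 of 8 were highest in that tumour. Vehicle tumour 2 held the highest value of 3 (Tcf7l1, Nkd1 and Ctnnb1) and the lowest of 3 (Tcf7l2, Lgr5 and Wnt4), where these shares were 24.2% and 18.7% of all genes.

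The wider pathway was read from 7 gene lists, by role. Of 105 measured genes on these lists that are not members, limma called 0 at an adjusted p of 0.05. Only 1 had an unadjusted limma p under 0.05, the secreted inhibitor gene Frzb, where 2.52% of all genes did. Under TMP195 60 were higher and 45 lower, with a median difference of 0.02. Their groups did not overlap in 4 genes that were higher and 2 that were lower, where 3.47% and 3.21% of all genes were so. The values of named genes below are log2 differences, TMP195 minus vehicle, and none passed the test.

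Among ligands and the genes for their secretion, 8 of 21 were higher and 13 lower, with a median of -0.012. Wnt8a differed by 0.26 ± 0.13 (SE), Wnt9a by 0.15 ± 0.09 and Wnt6 by -0.24 ± 0.14. Wnt8a was 0.12 without vehicle tumour 3. Wnt6 was -0.11 without vehicle tumour 1 and -0.37 without vehicle tumour 3. Among receptors 11 of 16 were higher, with a median of 0.08. The co-receptor gene Lrp5 differed by 0.20 ± 0.10, Fzd3 by 0.23 ± 0.13 and Fzd9 by 0.56 ± 0.30, the last mostly through TMP195 tumour 2, without which it was 0.19. Fzd3 was 0.11 without vehicle tumour 2. In the R-spondin group 4 of 9 were higher, with a median of -0.071. Rspo4, a secreted R-spondin, differed by -0.21 ± 0.16, the receptor gene Lgr6 by 0.17 ± 0.15, and Rnf43, a ubiquitin ligase that clears Frizzled receptors, by -0.10 ± 0.09. Lgr6 was 0.017 without TMP195 tumour 2 and 0.30 without TMP195 tumour 1. Rnf43 was -0.057 without TMP195 tumour 2, and Rspo4 was -0.053 without TMP195 tumour 3 and -0.12 without vehicle tumour 1.

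Secreted and surface inhibitors were higher in 8 of 18 and lower in 10, with a median of -0.012. Frzb, a decoy that binds Wnt ligands, was 3.76, 4.28 and 3.90 under vehicle and 3.19, 3.57 and 3.62 under TMP195, without overlap. Its difference was -0.51 ± 0.17 (SE), with an unadjusted limma p of 0.0219 and adjusted p = 1.00. Without vehicle tumour 2 it was -0.37, and the unadjusted p was above 0.05 without that tumour (0.0636) or without TMP195 tumour 1 (0.0703). The related decoy gene Sfrp2 differed by -0.36 ± 0.16, and Notum, an enzyme that removes the lipid from Wnt proteins, by -0.22 ± 0.10.

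In the cytoplasmic core 12 of 18 were higher, with a median of 0.05, among them the Dishevelled genes Dvl1 (0.10 ± 0.11) and Dvl3 (0.08 ± 0.10) and the kinase gene Gsk3b (0.07 ± 0.10). Without TMP195 tumour 2 these were 0.046, 0.033 and 0.021 in that order. Dvl3 was 0.025 and Gsk3b 0.035 without vehicle tumour 2, and without vehicle tumour 1 Dvl1 was 0.039, Dvl3 0.14 and Gsk3b 0.12. Dvl1 was 0.16 without TMP195 tumour 3. Among nuclear factors 15 of 19 were higher, with a median of 0.03, among them the Groucho gene Tle2 (0.20 ± 0.12) and the beta-catenin cofactor genes Bcl9l (0.28 ± 0.17) and Pygo2 (0.17 ± 0.11). Without TMP195 tumour 2 Bcl9l was 0.13 and Pygo2 0.082, and without vehicle tumour 2 Bcl9l was 0.14 and Tle2 0.098. These lists hold members as well.

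Known targets of the pathway were higher in 14 of 25 and lower in 11, with a median of 0.02. Axin2, the target most often used to gauge the pathway, was 5.33, 5.31 and 5.20 under vehicle and 5.35, 5.28 and 5.17 under TMP195. Its groups overlapped, its difference was -0.01 ± 0.09 (SE), and its sign turned with median centring (0.0019) and with array weights (0.010). In the tumour with high Lef1 its distance from the median of the other 5 was -0.036. Ccnd1, the cell cycle gene cyclin D1, was 9.71, 9.54 and 9.63 under vehicle and 9.69, 10.62 and 9.82 under TMP195. The high one was again TMP195 tumour 2, and the difference of 0.42 ± 0.24 was 0.13 without it. Wif1, a secreted inhibitor that binds Wnt ligands, was 7.96, 8.77 and 7.68 under vehicle and 7.08, 5.00 and 8.41 under TMP195. The low one was TMP195 tumour 2, and the difference of -1.31 ± 0.80 was -0.40 without it and -2.10 without TMP195 tumour 3.

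The same tumour was then read across all 7 lists, in genes chosen after their values were seen. TMP195 tumour 2 held the highest value of 41 of the 105 listed genes that are not members and the lowest of 14, beside 25.4% and 22.4% of all genes. Of these 105, 3 lay more than 2-fold above the median of the other 5 tumours and 3 more than 2-fold below, beside 1.51% and 1.06% of all genes. Those above were the decoy gene Sfrp1 (2.55 on the log2 scale), the receptor gene Fzd9 (1.28) and Trabd2b, which encodes a membrane protease that cleaves Wnt proteins (1.28). Those below were Wif1 (-2.96), the homeobox gene Prox1 (-1.80) and the receptor gene Tnfrsf19 (-1.05). Sfrp1 was 10.12 there against 7.15 to 8.92 in the other 5, with vehicle tumour 1 next. Wnt7b, a ligand gene, lay 0.98 above the median of the other 5 and Ccnd1 0.93 above it. In that tumour Lef1 and Sfrp1 were thus high and Wif1 low, while Axin2, Nkd1 and Ctnnb1 lay within 0.10 of the median of the other 5. Other targets varied there: of the 25 measured targets, 10 were highest in that tumour, Lef1 included, and 5 lowest. The median distance of the 25 from the median of the other 5 tumours was 0.059.

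**Figure D3:**
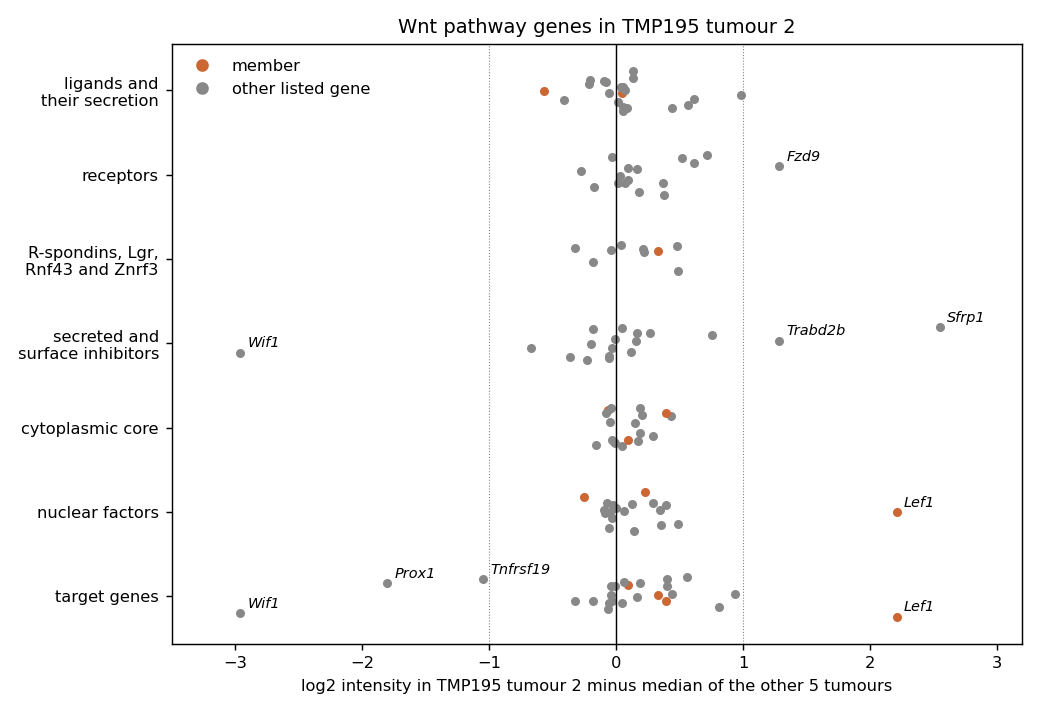
Log2 intensity in TMP195 tumour 2 minus the median of the other 5 tumours (x axis) for every measured gene of the 7 pathway lists (y axis; points are spread vertically for legibility); orange points are members, grey points the other listed genes, and dotted lines mark 2-fold. Lef1 (2.21) and Sfrp1 (2.55) lie far to the right and Wif1 (-2.96) far to the left, while most genes lie near 0; genes on 2 lists appear in both rows.

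Some other features of these tumours also set TMP195 tumour 2 or vehicle tumour 2 apart, and some did not. Their part in the values above was not tested. Naive T cells also express Lef1: of 14 measured T cell markers 6 were highest and 2 lowest in TMP195 tumour 2. Their summed intensity was 319 to 362 under vehicle and 319 to 390 under TMP195, with the 390 in that tumour. Skin appendages express Lef1 too, and the summed intensity of 14 hair and skin markers was 3402 in that tumour, inside the range of the others (2762 to 3517). That sum was led by a single gene, Trps1 (11.62, others 11.29 to 11.67), and says little of the rest. Of the 14 markers 2 were highest and 2 lowest there. Of 12 endothelial markers 1 was highest in TMP195 tumour 2, with sums of 1229 to 1497 under vehicle and 1341 to 1506 under TMP195. That tumour also had the lowest value of 9 of 11 adipocyte markers (sum 376, others 1060 to 6713), of 8 of 13 salivary-type secretory markers (sum 1448, others 1764 to 4703) and of 7 of 12 fibroblast markers (sum 7202, others 7915 to 12263). The salivary-type sum there was led by Aqp5 (10.25, others 10.02 to 10.56). Of those 13 markers 6 lay more than 2-fold below the median of the other 5 in that tumour, and 0 lay as far above. The lowest were Pip (-4.29) and Scgb2b27 (-3.85). Of 12 basal and myoepithelial markers 3 were highest and 4 lowest there, with Krt5 (-1.75) and Lgals7 (-1.58) far below the median of the other 5 and Oxtr (1.04) and Trp63 (0.98) far above it. Of 12 macrophage markers 6 were highest and 3 lowest there, with Cd14 (1.16) above the median of the other 5 and Mrc1 (-0.97) below it. The macrophage sums were 3919 to 4640 under vehicle and 3692 to 4621 under TMP195. Vehicle tumour 2, the low one for Lgr5 and Wnt4, held the highest value of all 14 skeletal muscle markers, with a sum of 4049 against 378 to 498 elsewhere. It also held the lowest value of 5 of 12 basal and myoepithelial markers (sum 1845, others 2177 to 2879) and of 7 of 12 endothelial markers. These intensities have no true zero, so no marker was listed at 0.

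Genes with a profile like that of Lef1 were sought over all 19936 others, by the root mean square difference in log2 intensity over the 6 tumours after each gene was centred on its own median. The nearest were Rbp7, a retinol-binding protein gene (0.080), Ctnnd2, which encodes delta-catenin (0.10), the vasopressin receptor gene Avpr1a (0.15), the calcium channel gene Trpv6 (0.15) and Exoc3l4 (0.16). Rbp7 was 5.72, 5.60 and 5.71 under vehicle and 5.79, 7.82 and 5.85 under TMP195, with the same tumour high. In TMP195 tumour 2 each of these 5 genes lay between 1.87 and 2.22 above its median of the other 5 tumours. Within a difference of 0.2 there were 9 genes, and none of them was on a pathway list, where the nearest was Fzd9 at rank 96. With a single high tumour, this likeness rests on that tumour.

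**Figure D4:**
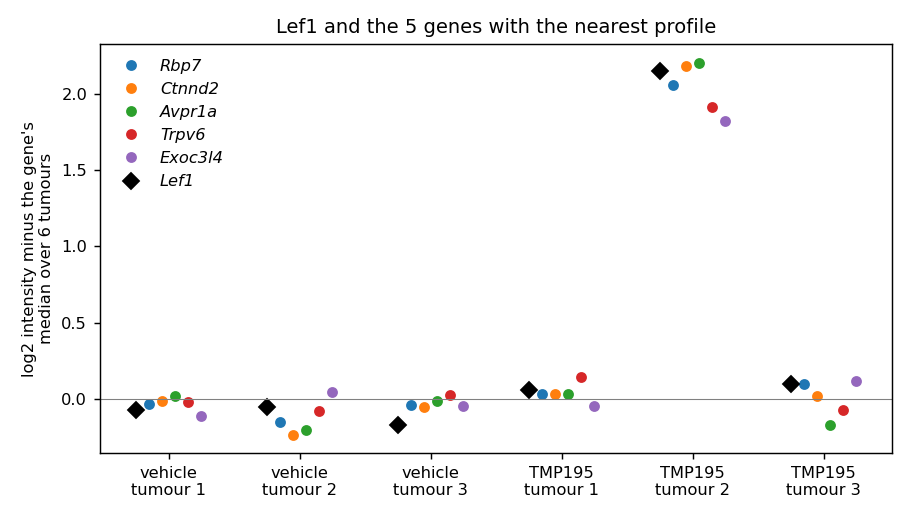
Log2 intensity minus the gene's own median over 6 tumours (y axis) in each tumour (x axis) for Lef1 (black diamonds) and the 5 genes with the smallest root mean square difference from it (coloured circles, offset sideways for legibility). All lie near 0 in 5 tumours and between 1.83 and 2.21 in TMP195 tumour 2.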

How the data were processed

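The table deposited by the authors holds signal intensity for 27359 probe sets in the 6 tumours. Per the submitters' processing notes, RMA in Affymetrix Power Tools made it. Versions, filters and the scale are not stated there. A linear scale was assumed, since all values exceed 0 and array medians are 44.8 to 46.4. RMA usually equalises the arrays' distributions, which would hide a change common to most genes. No detection calls were used, so a low value may be background.

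The platform annotation gave 21784 probe sets 1 symbol, 1620 several and 3955 none. Of the first, 21693 matched the RefSeq table (GRCm38.p6) by Entrez ID, with 0 symbols changed. Positions come from that table. Keeping each gene's row of highest mean left 19937 genes. The test was limma 3.58.1 (R 4.3.3) on log2 intensity, with lmFit and eBayes, two-sided, no covariate. Its p-values were adjusted by Benjamini-Hochberg across every gene. The code was tested on simulated data. Python 3.11.15, pandas 2.3.3, numpy 2.4.6 and matplotlib 3.10.9 did the rest.

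Members and lists were chosen with earlier results of these data known. All members were named, and of each pathway list up to 3 other genes with the smallest unadjusted p, plus Axin2 and the 5 genes nearest to Lef1. Alternatives tried were a block on replicate number, median centring, cyclic loess, a trended robust prior, array weights, an intensity filter at the 30th percentile, an offset of 16, the mean over a gene's rows, and leaving out each tumour.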

Additional observations from a re-analysis of the deposited data

How the results depend on the processing

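No gene passed an adjusted p of 0.05 in limma under any of the 15 alternatives. Unadjusted, 243 to 938 genes had p under 0.05, the lowest with the intensity filter, which tests fewer genes, and the highest with array weights, where the cause was not tested. With log2(value + 16) the height of Lef1 in TMP195 tumour 2 was 1.49 in place of 2.21, since an offset shrinks low values, and the differences of Frzb (-0.23) and Lgr5 (0.31) were smaller too. The intensity filter left Frzb, Rspo4, Wnt6 and Wnt8a out of the test. The height of Lef1 in TMP195 tumour 2 was 2.15 to 2.22 when any other tumour was left out. The median member difference ran from -0.0032 to 0.15 over the settings that leave out 1 tumour.

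Signs turned for the differences that follow, none of which passed the test. Leaving out 1 tumour gave -0.011 to 0.16 for Tcf7l2, -0.031 to 0.083 for Nkd1 and -0.057 to 0.036 for Axin2. Array weights gave Tcf7l2 -0.043 and Axin2 0.010, median centring gave Axin2 0.0019, and the mean over both rows gave Wnt4 -0.049. Leaving out vehicle tumour 2 and TMP195 tumour 2 together, added after seeing the data, gave Tcf7l1 0.040, Tcf7l2 -0.10, Bcl9l -0.0052, Dvl3 -0.026, Gsk3b -0.013 and Lgr6 -0.0023. The cause was not tested.

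Same-numbered tumours did not deviate together (correlations across genes of -0.21, -0.063 and -0.097). The values gave no sign that the numbers pair the tumours. They cannot exclude a pairing, since the deviations were taken within groups of 3. With the replicate block limma called 0 genes, and 397 had an unadjusted p under 0.05. The groups hold the same replicate numbers, so the block cannot change a difference between them. The median member difference of 0.08 and all signs were thus fixed in advance, and only p-values could move. The unadjusted limma p of Lgr5 was 0.0723 in place of 0.0345.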
